A study of Mus musculus with 2 samples.

Results

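Mouse zinc finger genes named Zfp and a number were followed in tissue around the dorsal aorta of the embryo, where 165 of the 341 on the array were detected. A gene was admitted when its symbol was Zfp followed by a number and the higher of its dorsal and ventral values reached 3.5 on the log2 scale. The whole table held 25429 features, 24675 of them with a symbol. The 165 genes were thus chosen by the same dorsal and ventral values that are compared, and every level and difference given for them is a description. Of the 165 genes 164 are protein-coding, and the other, Zfp783, is listed as a long noncoding RNA. The samples were 2 pieces cut by laser from cryosections of unfixed C57Bl/6 mouse embryos at embryonic day 10.5, the dorsal piece lying between the notochord and the aortic roof and the ventral piece beneath the vessel. Both came from the same embryos, and their number is not stated in the labels. There was 1 array per piece, each labelled biological replicate 4, so no value has an error, a replicate check or a p-value, and the genes are not replicates of a tissue. A gene is called ventral-high below when its signal in ventral tissue was 2-fold that in dorsal tissue or more, a difference of 1 on the log2 scale, and dorsal-high in the reverse case.

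Most proteins of this series contact DNA through repeated C2H2 zinc fingers, each a short loop held by a zinc ion between a pair of cysteines and a pair of histidines. Many also carry a KRAB domain, which recruits the corepressor Trim28 and, through it, the histone methyltransferase Setdb1 and HP1 proteins. Proteins of this kind silence transposable elements and guard DNA methylation at imprinted loci in the early embryo. Their genes multiply by tandem duplication and lie in clusters of related copies, so array probes for 1 copy may also read its relatives. The series name is a numbering and not a family, and it also covers proteins with other kinds of zinc finger, such as the mRNA decay factor Zfp36. Which proteins carry a KRAB domain was not analysed here.

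Signal near background limits what can be read from these genes. The 95th percentile of 1365 olfactory and vomeronasal receptor genes, which served as a gauge of background, was 3.92, and the 99th was 5.48. A level under 3.92 is called background here, and a fold against such a level is given as a lower bound, the brighter value over 3.92. Of the 165 genes 110 reached 3.92 on at least 1 array and 55 on neither. The number above it was 80 in dorsal and 92 in ventral tissue. Both arrays were above it for 62 genes, the dorsal array alone for 18 and the ventral array alone for 30. Only 27 genes reached 5.48 on at least 1 array, and 9 did so on both. The share of Zfp-number genes that reached 3.5 was 48.4%, against 40.5% of all genes with a symbol and 44.0% of the protein-coding ones.

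Tissue markers went with the labels of the pieces. Of 8 measured markers of sclerotome and notochord, 5 were above 3.92 in dorsal and 2 in ventral tissue, and their summed level was 7.83 and 6.53 on the log2 scale. Of 8 markers of coelomic epithelium and mesenchyme, 0 were above it in dorsal and 6 in ventral tissue, with summed levels of 6.40 and 8.20. Endothelial markers were above it for 2 of 6 in dorsal and 5 of 6 in ventral tissue, with summed levels of 6.29 and 7.77. Erythroid markers were above it for 4 of 5 in dorsal and 5 of 5 in ventral tissue, with summed levels of 13.48 and 13.38. Markers of macrophages, neural tube, liver, gut and skeletal muscle were above it for 1 of 5, 1 of 5, 1 of 3, 1 of 4 and 3 of 4 in dorsal tissue, and for 1, 1, 0, 1 and 2 in ventral tissue. The part of these cell types in the differences below was not tested, and in pieces of tissue fewer cells of a type cannot be told apart from less RNA per cell.

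Promoters of 3 genes that lay far apart are shown first, picked because they shared a short motif close to the start of transcription. The 3 genes are Zfp617 and Zfp157, the 2 with the greatest ventral excess, and Zfp808, the 1 with the greatest dorsal excess. The windows come from RefSeq on GRCm38.p6, run from 250 bases before to 50 after the listed start on the plus strand, and lie at chr8:71922575-71922874, chr5:138441226-138441525 and chr13:62129640-62129939. Capitals mark CCAATC, the reverse complement of GATTGG, a form of the CCAAT box.
Zfp617: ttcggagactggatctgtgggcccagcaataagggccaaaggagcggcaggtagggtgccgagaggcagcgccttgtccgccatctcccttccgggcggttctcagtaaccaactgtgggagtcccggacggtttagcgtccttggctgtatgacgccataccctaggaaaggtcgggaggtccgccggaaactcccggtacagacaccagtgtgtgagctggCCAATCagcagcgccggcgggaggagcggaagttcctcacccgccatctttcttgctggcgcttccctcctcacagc
Zfp157: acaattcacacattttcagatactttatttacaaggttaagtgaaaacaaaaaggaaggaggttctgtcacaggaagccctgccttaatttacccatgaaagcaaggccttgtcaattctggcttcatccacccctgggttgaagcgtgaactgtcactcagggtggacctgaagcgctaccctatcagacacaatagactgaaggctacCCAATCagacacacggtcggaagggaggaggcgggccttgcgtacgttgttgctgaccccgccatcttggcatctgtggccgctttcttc
Zfp808: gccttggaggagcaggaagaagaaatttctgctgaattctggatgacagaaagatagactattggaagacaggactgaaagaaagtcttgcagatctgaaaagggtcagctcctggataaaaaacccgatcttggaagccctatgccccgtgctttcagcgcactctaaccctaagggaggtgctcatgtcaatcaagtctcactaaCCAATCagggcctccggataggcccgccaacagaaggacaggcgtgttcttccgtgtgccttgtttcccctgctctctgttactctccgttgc
The capitals began 27 bases before the listed start in Zfp617, 40 before it in Zfp157 and 43 before it in Zfp808. The windows held 21, 9 and 8 CpG dinucleotides in that order. The motif was therefore present on both sides of the comparison, in genes higher in ventral and in genes higher in dorsal tissue. Among the other genes named below as furthest apart, Zfp938, Zfp691, Zfp994, Zfp996, Zfp81 and Zfp414 also held it in a window. Zfp141, Zfp738, Zfp148, Zfp358, Zfp638, Zfp948, Zfp292, Zfp787, Zfp606, Zfp213, Zfp445 and Zfp36 had a listed promoter without it. It was thus held by some of the genes furthest apart and not by others. Over the 134 Zfp genes with a listed promoter, it was searched on either strand. It was found in 13 of 31 ventral-high genes (41.9%), in 4 of 8 dorsal-high genes and in 25 of 95 within 2-fold (26.3%). The motif was thus more frequent on both sides than within 2-fold, a difference that rests on few genes and was not tested. Among all 27025 genes with a listed promoter 18.2% held it, and among the 7506 with a level of at least 3.5 it was 22.9%. A match of these letters is not evidence that a factor binds there.

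Most detected Zfp genes lay within 2-fold between the pieces, many of them at background, and of those that did not, more were ventral-high. Of the 165 genes 35 were ventral-high (21.2%), beside 13.0% of all 9997 genes with a level of at least 3.5. A further 13 were dorsal-high (7.88%), beside 6.59%, and 117 lay within 2-fold. In either direction that made 48 genes (29.1%), beside 19.6%. These shares stand side by side as a description, since the choice of genes used the same arrays. With no threshold on level, 36 of the 341 genes were ventral-high (10.6%, beside 5.36% of all 24675), 13 were dorsal-high (3.81%, beside 2.79%) and 49 were either (14.4%, beside 8.15%). The median difference, ventral minus dorsal, was 0.03 on the log2 scale for the Zfp genes and -0.07 for all 9997 genes. The quartiles of the difference were -0.46 and 0.72 for the Zfp genes, against -0.45 and 0.48. The lower quartiles were thus alike and the upper quartile of the Zfp genes was higher. Across the 165 genes, which share 2 arrays and are not independent, Pearson's r between the arrays was 0.539 and Spearman's rho 0.427, against 0.794 and 0.650 over all 9997 genes. The highest ventral value was 9.64 among the Zfp genes and 14.16 among all 9997, and 55 Zfp genes were at background on both arrays. A narrower range of levels lowers a correlation by itself, so these values do not compare the sets like for like.

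**Figure D1:**
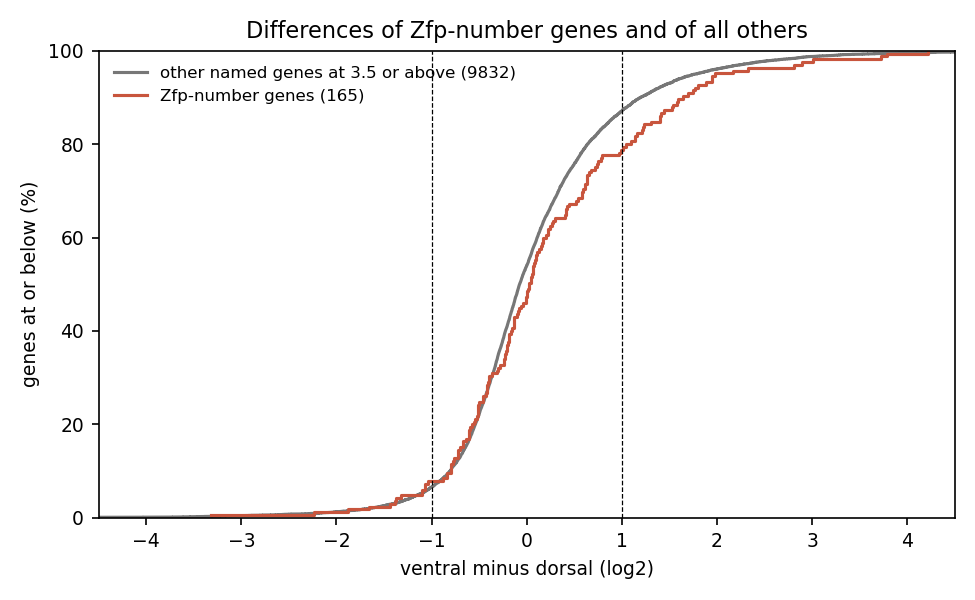
Cumulative share of genes (vertical axis, percent) at or below each ventral minus dorsal difference (horizontal axis, log2), for the 165 Zfp-number genes and for the other named genes with a level of at least 3.5; dashed lines mark 2-fold. The curves run together on the dorsal side and part on the ventral side, where 21.2% of the Zfp genes lie at or beyond 2-fold.

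A threshold on the higher of 2 values favours genes with a gap. With the mean of both arrays at or above 3.5 in its place the set held 129 genes, 31 of them ventral-high (24.0%, beside 14.0% of 8547 genes under the same rule) and 7 dorsal-high (5.43%, beside 6.49%). At 1.5-fold in place of 2-fold the 165 genes had 50 on the ventral side (30.3%, beside 21.7% of all 9997) and 32 on the dorsal side (19.4%, beside 17.7%). At 3-fold they had 18 (10.9%, beside 6.26%) and 4 (2.42%, beside 2.26%). Of the 62 genes above background on both arrays, 11 were ventral-high (17.7%, beside 13.8% of the 4758 genes of the whole table at that level), 3 dorsal-high (4.84%, beside 6.64%) and 14 either (22.6%, beside 20.4%). Of the 27 genes that reached 5.48 on at least 1 array, 15 were ventral-high (55.6%, beside 30.1% of 2628 genes), 3 dorsal-high (11.1%, beside 12.7%) and 18 either (66.7%, beside 42.9%). With 5.48 required on both arrays, 1 of 9 Zfp genes was ventral-high (11.1%, beside 14.4% of 1495 genes) and 2 were dorsal-high (22.2%, beside 8.43%), numbers too small to compare.

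**Figure D2:**
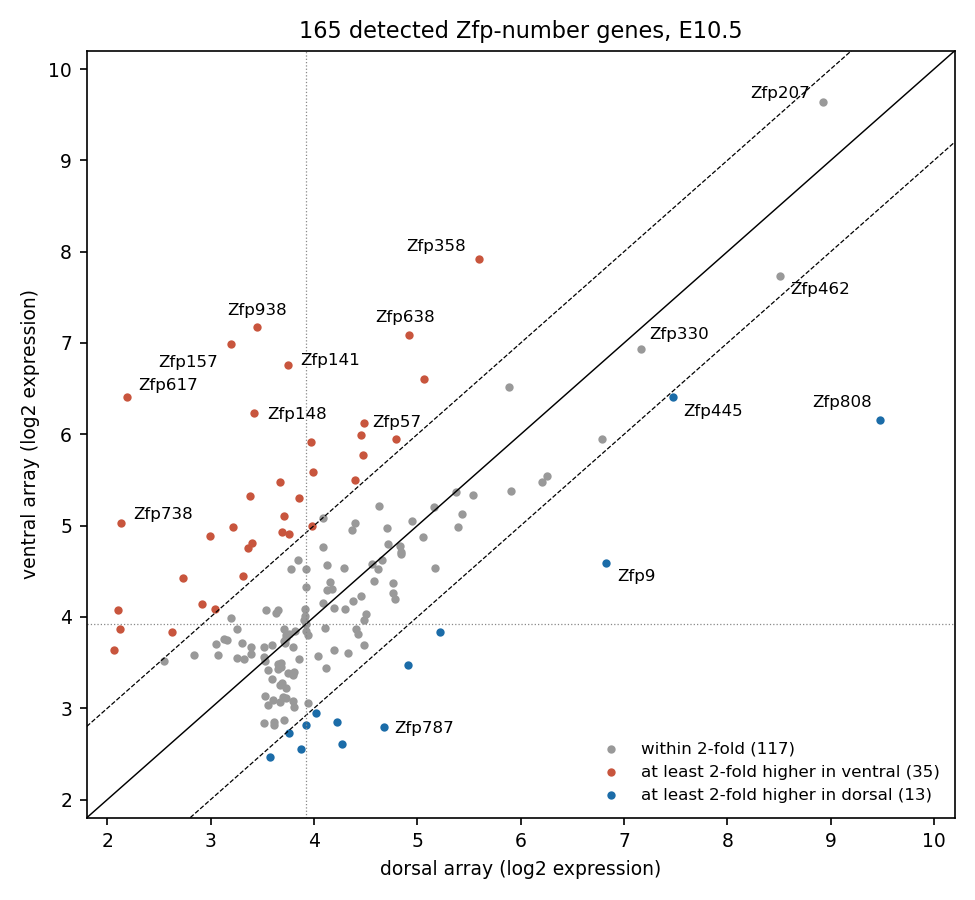
Each point is 1 of the 165 Zfp-number genes, with its value on the dorsal array (horizontal axis, log2) and on the ventral array (vertical axis, log2); the solid line marks equal values, dashed lines 2-fold and dotted lines the background mark of 3.92. Most of the 35 ventral-high genes lie toward the left, where dorsal values are low, and Zfp808, at 9.48 and 6.16, lies furthest below the diagonal.

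The genes with the greatest ventral excess included a known transcription factor among many of little known function. Zfp617 was measured at 2.19 dorsally and 6.41 ventrally, a difference of at least 5.63-fold. Zfp157 was at 3.20 and 6.99, at least 8.39-fold higher in ventral tissue. Zfp938 was at 3.45 and 7.17, at least 9.53-fold higher. All 3 were therefore at background in dorsal tissue and well above it in ventral tissue. Zfp141 went the same way, at 3.75 and 6.76, at least 7.14-fold. Zfp148, a factor that binds GC-rich promoters and is also known as ZBP-89, was at 3.42 and 6.23, at least 4.98-fold higher in ventral tissue. Zfp738 was at 2.13 and 5.03, at least 2.16-fold, with a ventral value under 5.48.

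Zfp358 and Zfp638 were above background in both pieces, so their folds were measured rather than bounded. Zfp358 was at 5.59 dorsally and 7.92 ventrally, 5.0-fold higher. Zfp638, a nuclear nucleic acid-binding protein also known as NP220, was at 4.92 and 7.09, 4.49-fold higher. Zfp691 was at 3.97 dorsally and 5.92 ventrally, 3.86-fold higher, with the dorsal value just above background. Zfp948, Zfp994 and Zfp292 complete the 12, with dorsal values of 2.10, 3.38 and 2.995 and ventral values of 4.08, 5.32 and 4.88. The bounds for these genes were 1.11-fold, 2.64-fold and 1.95-fold, so that only Zfp994 of the 3 stays at least 2-fold apart when background is taken into account.

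On the dorsal side Zfp808 stood apart from the rest. It was measured at 9.48 dorsally and 6.16 ventrally, 9.96-fold higher in dorsal tissue and above 5.48 on both arrays. Zfp9 followed at 6.83 and 4.59, a measured 4.71-fold. Zfp445 was at 7.48 and 6.41, 2.10-fold. These 3 were the only dorsal-high Zfp genes above background on both arrays, and Zfp445 slipped to -0.995 on the log2 scale, just inside 2-fold, when the differences were centred on the median of all 9997 genes.

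The 7 other dorsal-high genes among the 12 were at background in ventral tissue. Zfp787, Zfp449, Zfp996, Zfp623 and Zfp606 had dorsal values of 4.68, 4.27, 4.91, 5.22 and 4.22 and ventral values of 2.80, 2.61, 3.48, 3.84 and 2.85. Their bounds ran from 1.23-fold for Zfp606 to 2.47-fold for Zfp623, and only that of Zfp623 was above 2-fold. Zfp213 and Zfp81 had dorsal values of 3.93 and 4.01 and ventral values of 2.82 and 2.94, so close to background that almost no fold can be claimed. The last 2 of the 12, Zfp36 and Zfp414, were within 2-fold as deposited, although Zfp414 reached -1.13 on the log2 scale after quantile normalization. Zfp36, which encodes tristetraprolin, a protein that speeds the decay of cytokine mRNAs, was at 3.94 and 3.06, and Zfp414 at 6.78 and 5.95.

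**Figure D3:**
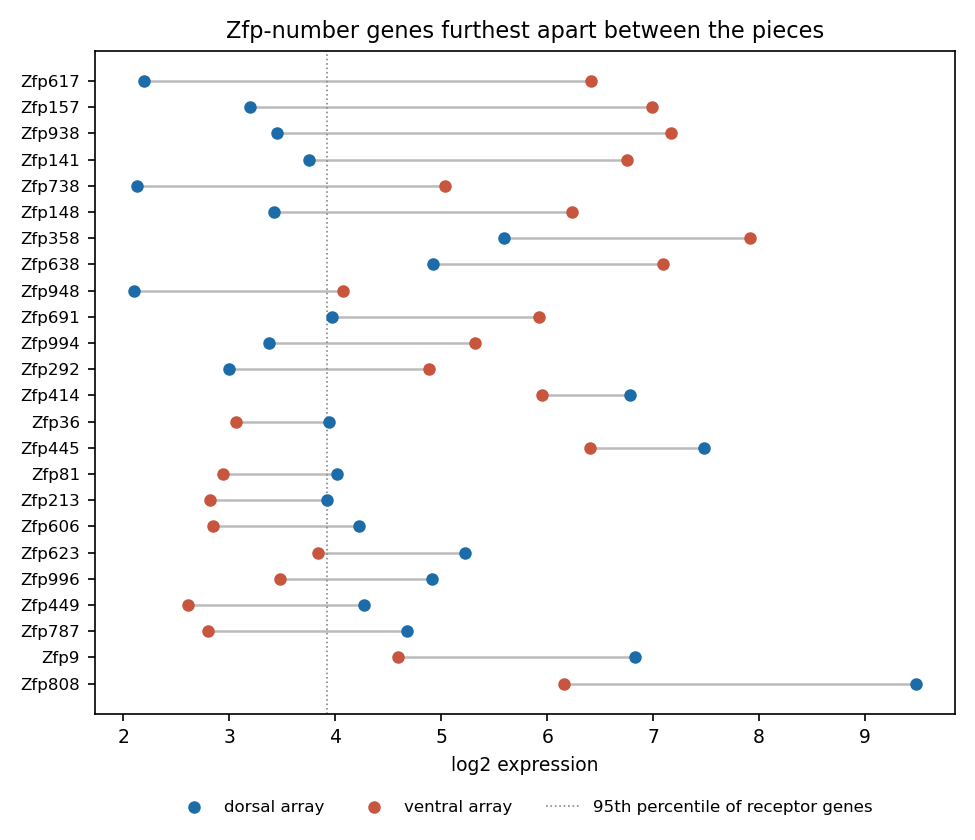
Values on the dorsal and ventral arrays (horizontal axis, log2) for the 24 Zfp-number genes furthest apart, 12 in each direction, ordered by difference; the dotted line marks background at 3.92. Most dorsal points of the ventral genes lie left of that line, except those of Zfp358, Zfp638 and Zfp691, and only Zfp414, Zfp445, Zfp9 and Zfp808 of the dorsal genes have both points right of it.

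Over all 48 genes 2-fold apart, background decides how many can be given a fold. Of the 35 ventral genes 11 had a measured fold, from 2.02 to 5.0 with a median of 2.91. Another 21 had a bound, and for 12 of these the bound itself was at least 2-fold. The remaining 3, Zfp975, Zfp931 and Zfp84, were at background on both arrays. Of the 13 dorsal genes 3 had a measured fold and 7 a bound, 1 of them at least 2-fold, and Zfp276, Zfp493 and Zfp936 were at background on both. A fold or bound of at least 2 thus remained for 23 ventral genes (13.9%, beside 10.0% of all 9997) and 4 dorsal genes (2.42%, beside 4.19%).

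Zinc finger proteins that guard imprints went in opposite directions. Zfp57, which keeps DNA methylation at imprinted control regions after fertilisation, was at 4.46 dorsally and 5.99 ventrally, a measured 2.88-fold. Zfp445, which shares that task, was higher in dorsal tissue by 2.10-fold, as given above. Zfp568 and Zfp809, KRAB proteins with known targets, were under 3.5 and are not counted among the 165. Zfp568, which represses a placental transcript of Igf2, had values of 3.25 and 3.16. Zfp809, which silences endogenous retroviruses, was at 3.38 and 3.09. A difference in either was not detectable at this signal.

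The cofactors through which KRAB proteins act were better detected. Of 38 listed genes 34 were measured and 31 reached 3.5. Of these 31, 6 were ventral-high, beside 13.0% of all 9997 genes, and 2 dorsal-high, beside 6.59%. The median difference was 0.39, against -0.07 over all 9997 genes. After quantile normalization of both columns the cofactor counts were 3 and 3 and the median 0.16, so the balance of the counts depends on the scaling. Over all genes the counts were then 1130 and 786. Trim28, the corepressor that binds the KRAB domain, was at 7.04 dorsally and 7.53 ventrally, within 2-fold. Setdb1, the methyltransferase it recruits, was at 3.63 and 5.51, at least 3.01-fold higher in ventral tissue. The deacetylase Hdac1 was at 2.87 and 8.78, at least 29.0-fold higher in ventral tissue, while its paralog Hdac2 was at 9.11 and 10.16. Of these 4 genes only Trim28 was within 2-fold. Rbbp7, a histone chaperone of the NuRD complex, was at 7.39 dorsally and 8.79 ventrally, 2.63-fold higher in ventral tissue. Cbx3, the HP1 gamma protein, was at 11.17 dorsally and 9.25 ventrally, 3.79-fold higher in dorsal tissue. Cbx1 and Cbx5, the other HP1 genes, were at 6.11 and 7.87 dorsally and at 6.57 and 8.73 ventrally, within 2-fold and on the ventral side, so the HP1 genes did not share a direction.

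**Figure D4:**
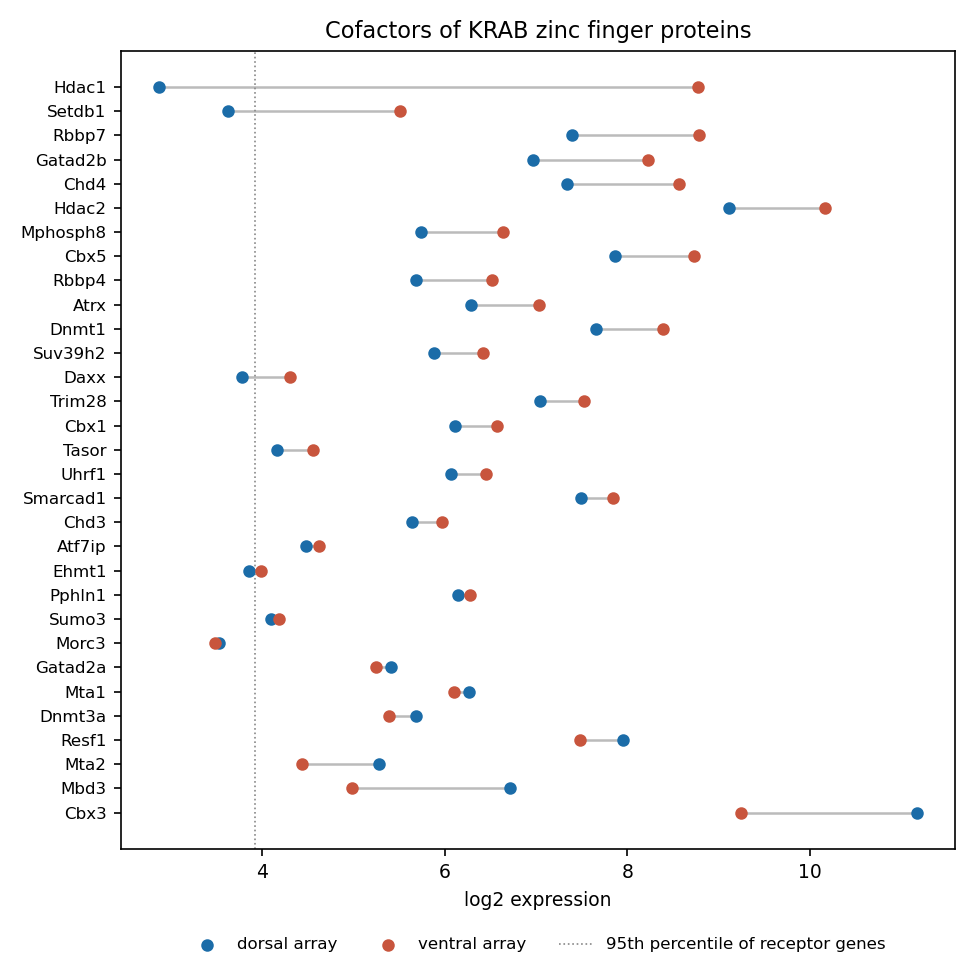
Values on the dorsal and ventral arrays (horizontal axis, log2) for the 31 cofactors of KRAB zinc finger proteins that reached 3.5, ordered by difference; the dotted line marks background at 3.92. The ventral point lies to the right for most genes, with Hdac1 and Setdb1 at the top and Mbd3 and Cbx3, higher in dorsal tissue, at the bottom.

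Zfp genes with known roles in chromatin and transcription were read 1 by 1, with no list behind them. Zfp462, a large nuclear protein of chromatin in neural development, was at 8.51 dorsally and 7.74 ventrally. Zfp281, a regulator of the exit from pluripotency, was at 4.76 and 4.37, and Zfp335, a chromatin factor required in neural progenitors, at 4.84 and 4.69. Zfp644, which binds the histone methyltransferase G9a, was ventral-high at 3.76 and 4.90, although its bound was only 1.98-fold. Zfp217, a corepressor subunit, did not pass background on either array, with 3.32 and 3.54. Zfp410, an activator of the NuRD gene Chd4 that was picked with its values already known, was at 3.98 dorsally and 5.0 ventrally, 2.02-fold higher in ventral tissue. The dorsal value of Zfp410 was just above background and its fold just over 2. Chd4 itself was at 7.34 and 8.57, 2.33-fold higher. A link between these 2 genes was not tested. Zfp143 and Zfp91 were not analysed here.

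Zfp423, Zfp521 and Zfp503, regulators of mesenchymal and neural differentiation, were above background in both pieces and within 2-fold. Zfp423, a partner of Smad and Ebf factors in mesenchyme, was at 4.95 dorsally and 5.06 ventrally. Zfp521, its paralog and a regulator of blood, nerve and bone progenitors, was at 6.25 and 5.55, 1.63-fold higher in dorsal tissue. The paralogs thus each differed by less than 2-fold between the pieces as deposited, although Zfp521 reached -1.001 on the log2 scale after quantile normalization. Zfp503, a repressor also known as Nolz1, was at 4.62 and 4.52. Zfp219, a cofactor of Sox9 in cartilage, was at 4.43 in dorsal tissue and at 3.82, under background, in ventral tissue. Several other regulators of this kind were not detected. Zfp703, the paralog of Zfp503, was at 2.80 and 2.71. Zfp516, a regulator of brown fat, was at 3.496 and 3.19, and Zfp64 at 3.10 and 3.49. These 3 fell short of 3.5. Zfp536 and Zfp711, which act in neurons, were at 2.55 and 2.54 dorsally and at 2.51 and 2.54 ventrally. Zfp42, the pluripotency marker Rex1, was at 2.51 and 2.38. They too were under 3.5 on both arrays.

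Some of the brightest Zfp genes were among those within 2-fold. Zfp207, also known as BuGZ, which loads the checkpoint protein Bub3 onto kinetochores, was at 8.92 dorsally and 9.64 ventrally. Zfp106, an RNA-binding protein needed by motor neurons, is not among the brightest and was under 5.48 on each array, at 4.84 and 4.71. Zfp207 and Zfp106 were both within 2-fold. Zfp330 was at 7.17 and 6.93, the smallest difference among the 9 genes above 5.48 on both arrays. Zfp266, at 5.89 and 6.52, and Zfp521 were the next smallest. Of those 9 genes 6 were within 2-fold as deposited (66.7%), beside 77.1% of the 1495 genes of the whole table at that level. Zfp414, Zfp462 and Zfp521 were close enough to 2-fold that a change of scaling took them past it. Signal differs between probes for reasons of their own, so these levels give no order of transcript abundance between genes.

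Close to the threshold the values say little about expression. The genes just inside it were Zfp707 at 3.52 dorsally and 2.84 ventrally, Zfp689 at 3.52 and 3.52, and Zfp583 at 2.55 and 3.52. Just outside were Zfp516, Zfp64 and Zfp709, the last at 2.84 and 3.49. All 6 were at background on both arrays.

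Neighbouring Zfp genes were compared next, because the series expanded by local duplication. Of the 341 genes 168 lay in 51 runs, where a run is a stretch of Zfp-number genes with no other protein-coding gene between them in the RefSeq table of GRCm38.p6. Another 170 had no such neighbour and 3 were not placed. The longest run held 12 genes. Of the genes in runs 74, or 44.0%, reached 3.5, and of those outside 90, or 52.9%. Among the detected genes in runs 16 were ventral-high and 7 dorsal-high, and among those outside 19 and 6. The share of genes 2-fold apart was therefore 31.1% in runs and 27.8% outside them.

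The 4 runs that held at least 2 ventral-high genes are described here, and their values are compared between arrays and not between genes. In the run Zfp760, Zfp229, Zfp820, Zfp995, Zfp942, Zfp943, Zfp947 and Zfp994, the outermost genes were the ones higher in ventral tissue. Zfp760 was at 3.86 dorsally and 5.31 ventrally and Zfp994 at 3.38 and 5.32, while Zfp943 between them was at 3.82 and 3.84 and the other 5 were under 3.5. In the run Zfp709, Zfp882, Zfp617 and Zfp961, the last 2 were ventral-high, Zfp961 by 2.91-fold at 6.60 against 5.06. Zfp882 beside them was at 3.69 dorsally and 3.28 ventrally. In the run of 7 that holds Zfp948 and Zfp983, these 2 were at 2.10 and 3.04 dorsally and at 4.08 and 4.09 ventrally. Their ventral values were just above background, and their bounds were only 1.11-fold and 1.12-fold. Zfp971 and Zfp931, a pair, were at 4.40 and 2.06 dorsally and at 5.50 and 3.64 ventrally. Zfp971 had a measured 2.14-fold, whereas Zfp931 was at background on both arrays. Only 21 of the 51 runs had at least 2 detected genes. Of these, 4 had at least 2 ventral-high genes, 0 had 2 dorsal-high genes and 0 held both kinds. The dorsal-high genes Zfp493, Zfp9, Zfp787 and Zfp606 were the only detected genes of their runs, which could thus hold no second call. Only Zfp623, Zfp213 and Zfp81 had another detected gene in their run, so the zeros say little. Whether neighbours share a direction was not tested. Related copies may share probe signal, so genes of a run are not independent.

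**Figure D5:**
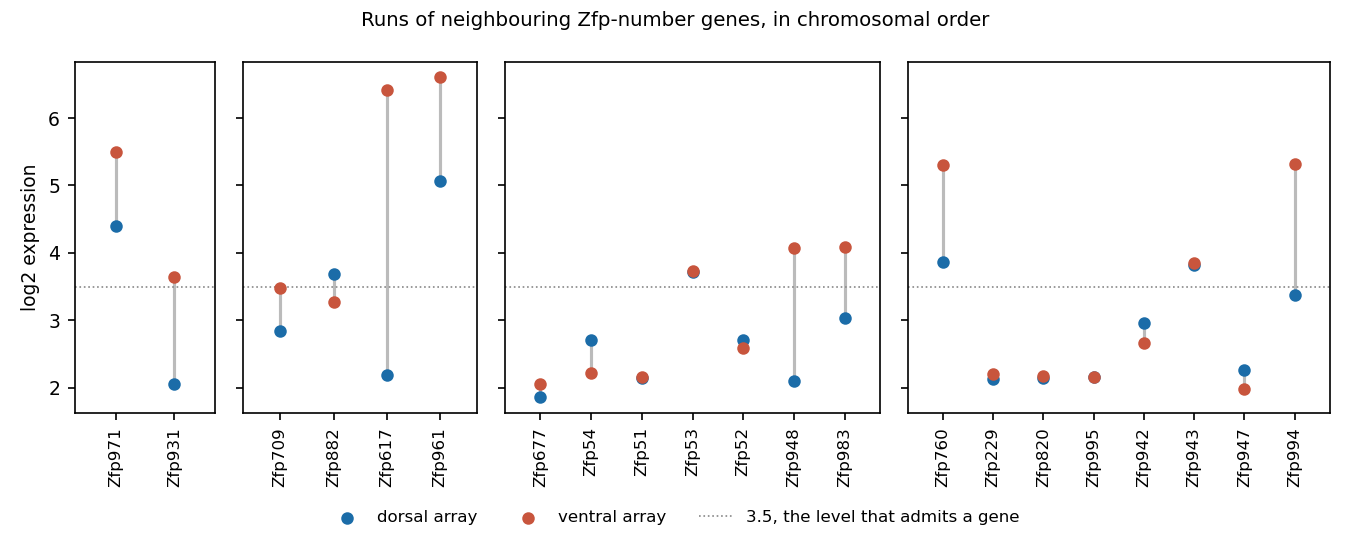
Values on the dorsal and ventral arrays (vertical axis, log2) for the genes of the 4 runs that hold at least 2 ventral-high genes, in chromosomal order along the horizontal axis; the dotted line marks 3.5. Zfp617 and Zfp961 lie side by side, whereas Zfp760 and Zfp994 lie at the ends of their run, with Zfp943 between them nearly even at 3.82 and 3.84. The background mark of 3.92 is not drawn, and Zfp931 lies under it on both arrays.

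Promoter sequence, like gene order, was not set by the arrays. RefSeq listed 164 windows for 134 of the 165 genes, 24 of them with more than 1 start. The median number of CpG dinucleotides per window of 300 bases was 16 for the detected Zfp genes, 13 for the Zfp genes under 3.5 and 20 for all genes with a level of at least 3.5. Counted by gene at its richest window, the median was 12 for the ventral-high genes, 14 for the dorsal-high genes and 18 for those within 2-fold.

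The 9 short motifs searched on both strands were picked after the data were seen, so their ranking is a description only. Among them the core of the Zfp143 site had the greatest share in Zfp windows relative to all windows. It was found in 6 of 164 windows of detected Zfp genes, or 3.66%, and in 4 of 175 windows of the other Zfp genes, or 2.29%. Of all 32851 windows 0.286% held it, and of those of genes with a level of at least 3.5 0.673%. It is part of the site bound by Zfp143, a zinc finger activator of promoters. The 6 matches are shown as stretches of 30 bases with the core in capitals, each written on the strand that carries it in that orientation.
Zfp1: gaggtgtaggACTACAATTCCcataatgcc
Zfp58: cagtggccagACTACAATTCCcacaagtct
Zfp108: tggctccagaACTACAATTCCcagaatgcc
Zfp128: ggacactgagACTACAATTCCcagaaggcc
Zfp180: gctcaatggaACTACAATTCCcagaactct
Zfp692: actaaggctaACTACAATTCCcggcaggct
These lie on GRCm38.p6 at chr8:111643409-111643438 (minus strand) for Zfp1, chr13:67500532-67500561 (plus) for Zfp58, chr7:24254718-24254747 (minus) for Zfp108, chr7:12881154-12881183 (minus) for Zfp128, chr7:24081866-24081895 (minus) for Zfp180 and chr11:58307011-58307040 (plus) for Zfp692. In each the motif was followed by a further C. Zfp108 and Zfp180 lie in the same run, so their matches are not independent. All 6 genes were within 2-fold. Zfp692 was at 5.39 dorsally and 4.98 ventrally, Zfp128 at 4.19 and 3.64 and Zfp108 at 3.90 and 3.96. Zfp1, Zfp58 and Zfp180 had values from 3.42 to 3.80, all at background.

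For each of the other motifs 4 shares are given in the same order: windows of detected Zfp genes, of the other Zfp genes, of all genes with a level of at least 3.5, and all windows. GATTGG was found in 28.0%, 26.9%, 20.0% and 16.1% of them. TTCCGG, the core of ETS sites, was found in 32.9%, 36.0%, 25.2% and 14.9%, and the longer CCGGAAGT, which overlaps it, in 9.76%, 11.4%, 7.51% and 3.89%. These motifs were thus no more frequent in detected than in other Zfp genes, apart from a small margin for GATTGG. The palindrome of the NRF1 motif was found in 3.05%, 4.0%, 2.01% and 0.971%. The GC box GGGCGG was found in 43.3%, 47.4%, 59.0% and 35.7%, and CACGTG in 5.49%, 9.14%, 9.49% and 7.15%, so both were less frequent in detected Zfp windows than in those of all genes at that level. The YY1 motif was in 0.610%, 1.14%, 1.38% and 0.633%, and the CGCG element in 0.610%, 0%, 1.02% and 0.466%. Windows of related copies are not independent.

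Other C2H2 gene families gave fewer genes to compare. Their counts stand beside shares of 13.0% ventral-high and 6.59% dorsal-high among all 9997 genes with a level of at least 3.5. Of 35 measured Zbtb genes, whose proteins join zinc fingers to a BTB domain, 14 reached 3.5 and only Zbtb9 was dorsal-high, at 5.58 dorsally and 3.84 ventrally, a gap of at least 3.17-fold, with 0 ventral-high. Of 22 Zkscan and Zscan genes, whose proteins carry a SCAN domain, 4 reached 3.5 and 0 were 2-fold apart. Of 25 Klf and Sp genes 19 reached 3.5, with 1 ventral-high gene, Klf12, and 2 dorsal-high genes, Klf1 and Sp9. Klf1 had a measured 2.14-fold, whereas the bound for Klf12 was only 1.56-fold and Sp9, with 3.64 and 2.39, did not reach background on either array. Of 42 other C2H2 regulators 41 were measured and 29 reached 3.5, with 4 ventral-high and 2 dorsal-high, close to the shares of all genes. Ctcf, which organises chromatin loops, was at 4.75 dorsally and 7.09 ventrally, 5.05-fold higher in ventral tissue. Osr2, a regulator of limb and kidney mesenchyme, was at 6.003 dorsally and 2.95 ventrally, at least 4.24-fold apart. After quantile normalization this last list had 4 and 5 such genes. That the Zfp series differs from these families was not tested.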

How the data were processed

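Per the labels' protocols, laser-cut tissue gave picogram amounts of total RNA, which were amplified isothermally and hybridised to Affymetrix Mouse Gene 2.0 ST arrays. Such amplification can lose or over-represent transcripts. The authors deposited 1 value on the log2 scale for each gene number and array. Affymetrix Expression Console and RMA were used, per the submitters' processing notes, with versions, build and the set of arrays normalized jointly not given in the sources used here. With 2 arrays, their number limits the precision of every value.

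Symbols came from the platform annotation through the gene number; 24675 of 25429 features had 1, all matched the RefSeq table of GRCm38.p6 and 754 had none. Differences are ventral minus dorsal. With 1 array per tissue no test was possible, and genes were counted by fold. The genes and lists were chosen with earlier results of these data known. The text names the 12 genes furthest apart in each direction among those at or above 3.92 on at least 1 array, the 8 brightest, 3 on each side of the threshold, the 3 nearest to no difference above 5.48 on both arrays and 25 genes of interest, of which 2 were not among the features. The receptor genes that gauge background came from that earlier work too, and the motifs were chosen after seeing the data. Planned splits by KRAB domain or C2H2 finger needed protein sequences and were not run. Counting was tested on simulated data. Tables were made with pandas 2.3.3 and numpy 2.4.6 in Python 3.11.15, the loess with statsmodels 0.14.6, rank correlations with scipy 1.17.1 and plots with matplotlib 3.10.9.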

Additional observations from a re-analysis of the deposited data

How the results depend on the processing

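The median difference of the Zfp genes, 0.026 as deposited, was 0.041 after quantile normalization of both columns, 0.10 after centring and 0.11 after a loess on level (span 0.3). It was -0.030 with a threshold of 3.0 and -0.032 with none, 0.10 at the receptor genes' 95th percentile, 1.16 at their 99th and 0.064 with the mean of both arrays at or above 3.5. Its sign therefore depends on the threshold. The count of ventral-high genes stayed between 31 and 37 under the scalings and the thresholds on level, except at the 99th percentile, where fewer genes were admitted and it was 15. Over all genes the ventral and dorsal counts were 1301 and 659 as deposited, 1130 and 786 after quantile normalization, 1419 and 559 after centring and 1313 and 642 after the loess; for the Zfp genes they were 35 and 13, 33 and 15, 37 and 10, and 37 and 10. The dorsal count went from 13 to 3 at the 99th percentile and to 7 with the mean. At 1.5-fold the counts were 50 and 32, and at 3-fold 18 and 4, beside 2169 and 1772, and 626 and 226, of all 9997 genes. Among the genes chosen by the stated rule, 24 were at least 2-fold apart, and none of these changed direction under a scaling. But 3 of them, Zfp445, Zfp81 and Zfp213, fell inside 2-fold under centring or the loess. Genes that the text names outside that rule, such as Zfp493, Zfp410 and Zfp983, were not followed 1 by 1 under the scalings. Other named genes, within 2-fold as deposited, passed 2-fold under a scaling. After quantile normalization Zfp414 was at -1.13, Zfp521 at -1.001 and Zfp583 at 1.08. After the loess Zfp414 was at -1.02, Zfp462 at -1.03 and Zfp583 at 1.59. Centring put Zfp583 at 1.05. The other C2H2 regulators had 4 and 4 after the loess, and the KRAB cofactors 4 and 2. The splits by KRAB domain and the count of genes with a C2H2 finger were not run. No paired analysis was possible because each tissue has 1 array. Signal near background limits many of these genes: 55 of 165 were under 3.92 on both arrays.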

Other observations

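Symbols that start with Zf but fall outside the numbered Zfp series, 67 in all, include near relatives of its members. Of these 35 reached 3.5, with 4 ventral-high and 2 dorsal-high, no more than the 13.0% and 6.59% of all 9997 genes. The counts were 5 and 3 after quantile normalization, 6 and 2 after centring and 7 and 2 after a loess on level. Zfp955b had values of 5.89 dorsally and 9.22 ventrally, a measured 10.1-fold, while its relative Zfp955a was at background with 2.15 and 2.56. Zfp280b had values of 3.82 and 6.33, a gap of at least 5.31-fold toward ventral tissue, and its relative Zfp280c lay the same way at 3.76 and 4.76, a difference of 0.999 on the log2 scale. Zfp280d was at 4.39 and 4.64. Zfp36l1 and Zfp36l2, which like Zfp36 bind AU-rich elements and promote mRNA decay, differed from each other. Zfp36l1 was at 6.44 dorsally and 6.29 ventrally, and Zfp36l2 at 5.04 and 2.76, a gap of at least 2.17-fold toward dorsal tissue. Zfand3, at 6.06 dorsally and 3.53 ventrally, went the same way by at least 4.41-fold, and Zfand6, at 4.26 and 5.57, the other way by 2.48-fold. These genes were chosen after their values were seen.

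Zfpm1 and Zfpm2, which encode the Gata cofactors Fog1 and Fog2, were at background in both pieces, with 3.496 and 2.62 dorsally and 3.27 and 3.17 ventrally. Zfas1, a noncoding RNA that hosts small nucleolar RNAs, was nearly even, at 9.57 and 9.41. None of these differences has a replicate check.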
